A study of Mus musculus with 12 samples.

Results

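The genes described here are 44 lysosomal hydrolases, their activators and lysosomal membrane proteins, followed across 12 RNA-Seq libraries of mouse quadriceps, a large thigh muscle. They were listed by symbol with no threshold on their values, though earlier results of these data were known when the list was made, and all 44 were found among the 15344 genes with values in each of the deposited tables. The study asked how muscle RNA differs in Pompe disease, in which the lysosomal enzyme that degrades glycogen, acid alpha-glucosidase (gene Gaa), is missing, and how it responds to gene therapy. The WT group held 4 untreated C57BL/6 mice. The KO group held 4 mice with a GAA knock-out on the C57BL/6 background that were injected with PBS, and the AAV group held 4 mice of the same knock-out that received AAV2/8-LSPhGAApA at 2e12 vg/kg through the tail vein. KO and AAV mice therefore share the knock-out of Gaa, and all 12 mice were 6 months old. Per the study's methods the injected mice were males treated at 2 months of age, muscle was taken 4 months later, and the vector makes human GAA under a promoter that is active in liver, so that muscle is reached by enzyme carried from the liver. The labels name each library as a separate animal, and the count of human GAA from the vector was not analysed here.

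Lysosomes are acidic organelles that degrade glycogen, glycans, lipids and proteins with a large set of hydrolases, whose products leave through transporters in a membrane protected by heavily glycosylated LAMP proteins. Many genes of this system carry the palindrome CACGTG in their promoters, to which TFEB and related transcription factors can bind and raise them together. In Pompe muscle, glycogen builds up in swollen lysosomes and autophagy is impaired, and macrophages, which enter damaged muscle, are themselves rich in cathepsins and other lysosomal enzymes.

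In the files each value is a normalized count, the number of reads of a gene in a library divided by 1 size factor for that library. Between 22122233 and 47379737 reads per library lay behind the values, and no member had fewer than 28 reads in any library. The 9 myofibre genes checked, among them Acta1, Ckm and Mb, summed to between 4710588 and 7772648 normalized counts per library, so that the labelled tissue had its defining transcripts in every library. In bulk tissue, fewer cells of a type and less RNA per cell cannot be told apart. Groups were compared in pairs with limma on log2(normalized count + 1), so that fold changes of genes with few reads are somewhat understated. A difference counted as called when its Benjamini-Hochberg adjusted p, taken over all genes tested, was below 0.05. Library values are normalized counts throughout, and fold changes are log2 values of the first-named group minus the second.

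Gaa went against the labels, which has to be known before any direction is read. In WT animal 2 there were 14640.2 normalized counts, against 343, 324 and 460.3 in the other libraries labelled WT, while KO animals 1 to 4 had 12151, 13074, 11936 and 12895. AAV animals 1 to 4 had 947, 587, 499.6 and 9854. The knocked-out gene was thus high in every library labelled KO and low in 3 of 4 labelled WT and 3 of 4 labelled AAV, with WT animal 2 and AAV animal 4 apart from their groups. The files do not say where along Gaa the reads lie. Whether libraries or columns were exchanged was not tested, and the assays of GAA activity and glycogen that the methods describe for other portions of these muscles were not analysed here. Groups are named as the libraries are labelled, and a direction between groups holds as far as those labels do.

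Promoter sequences are shown because CACGTG is the motif by which lysosomal genes are known to be addressed together. RefSeq windows of the GRCm38.p6 build, from 250 bases before to 50 bases after the start of transcription, were held for 38 of the 44 members (43 windows, with none for Aga, Asah1, Ctsb, Ctsh, Galns and Npc1). CACGTG, which reads the same on both strands, was present in 14 of the 38 (36.8%), against 2187 of all 27025 genes with a window (8.09%). The longer form TCACGTG on either strand, which contains the shorter, was present in 12 of the 38 (31.6%), against 1160 of all genes (4.29%). Windows of 5 members are printed 5′ to 3′ along the gene with each CACGTG in capitals: the targeted gene Gaa (chr11:119267803-119267862, + strand), the protease genes Lgmn (chr12:102439102-102439161, - strand) and Ctsa (chr2:164833713-164833772, + strand), which passed the test in both comparisons with the KO libraries, Lamp1 (chr8:13159091-13159160, + strand), with the most copies, and Ctsd (chr7:142387896-142387955, - strand), the member with the highest level.
Gaa: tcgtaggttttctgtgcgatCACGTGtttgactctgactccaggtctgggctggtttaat
Lgmn: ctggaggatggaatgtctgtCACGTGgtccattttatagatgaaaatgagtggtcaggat
Ctsa: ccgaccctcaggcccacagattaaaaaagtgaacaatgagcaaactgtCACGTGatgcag
Lamp1: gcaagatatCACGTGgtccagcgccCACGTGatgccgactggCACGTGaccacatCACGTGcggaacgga
Ctsd: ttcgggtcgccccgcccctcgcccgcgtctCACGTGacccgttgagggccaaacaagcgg
The Lamp1 stretch, which ends at the base before the start of transcription, holds 4 copies whose first bases lie at -61, -45, -28 and -15 from it. Gaa has a single copy at -140 and Lgmn a single copy at -49. Ctsa and Ctsd have 2 copies each, of which the printed stretches hold those at -12 and -98. Positions are from the RefSeq start of each window. For Lgmn and Ctsa the whole window lies downstream of the gene's 5′ end in GENCODE M21 (102439813 and 164832873). The motif was also found in Cln3, Mcoln1, Glb1, Naglu, Sgsh, Ctsl, Arsa, Ctsf and Gla. A match is a description of the sequence only.

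Levels per kilobase of exon, averaged over the 12 libraries, ran over a wide range. Ctsd, the aspartic protease cathepsin D, had the highest level at 12203 normalized counts per kilobase (percentile 99.5 among all genes), followed by Psap, the precursor of the saposins that help lipid hydrolases, at 8964, and Lamp1, a main glycoprotein of the lysosomal membrane, at 7115. Ctsb at 1996 and Hexa at 1601 came next. Gaa, at 1354 over the 12 libraries, had no fixed place, with 824.1 per kilobase in WT and 621.3 in AAV, below Cd63, Ctsz and Lgmn, and 2616 in KO, above Ctsb and Hexa. Galc, the galactosylceramidase, had the lowest level at 12.35 per kilobase (percentile 24.6), just under Glb1 at 19.99. Members thus ranged from some of the most abundant transcripts of this muscle to genes below its median.

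The spread between animals was smaller in KO than in the other groups. The median coefficient of variation (SD over mean, 4 animals) of the members was 8.75% in KO, against 23.4% in WT and 23.2% in AAV, and over all genes it was 13.5%, 25.6% and 22.9%. Psap varied least in KO (1.69%) and Ctsk most (34.6%), while Gaa varied most in WT (181%) and AAV (155%). WT animal 3 was the lowest WT library for 33 of the 44 members, where 35.4% of all genes had their lowest WT value in it. AAV animal 4 was the highest AAV library for 33 of the 44 members, against 29.5% of all genes.

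**Figure D1:**
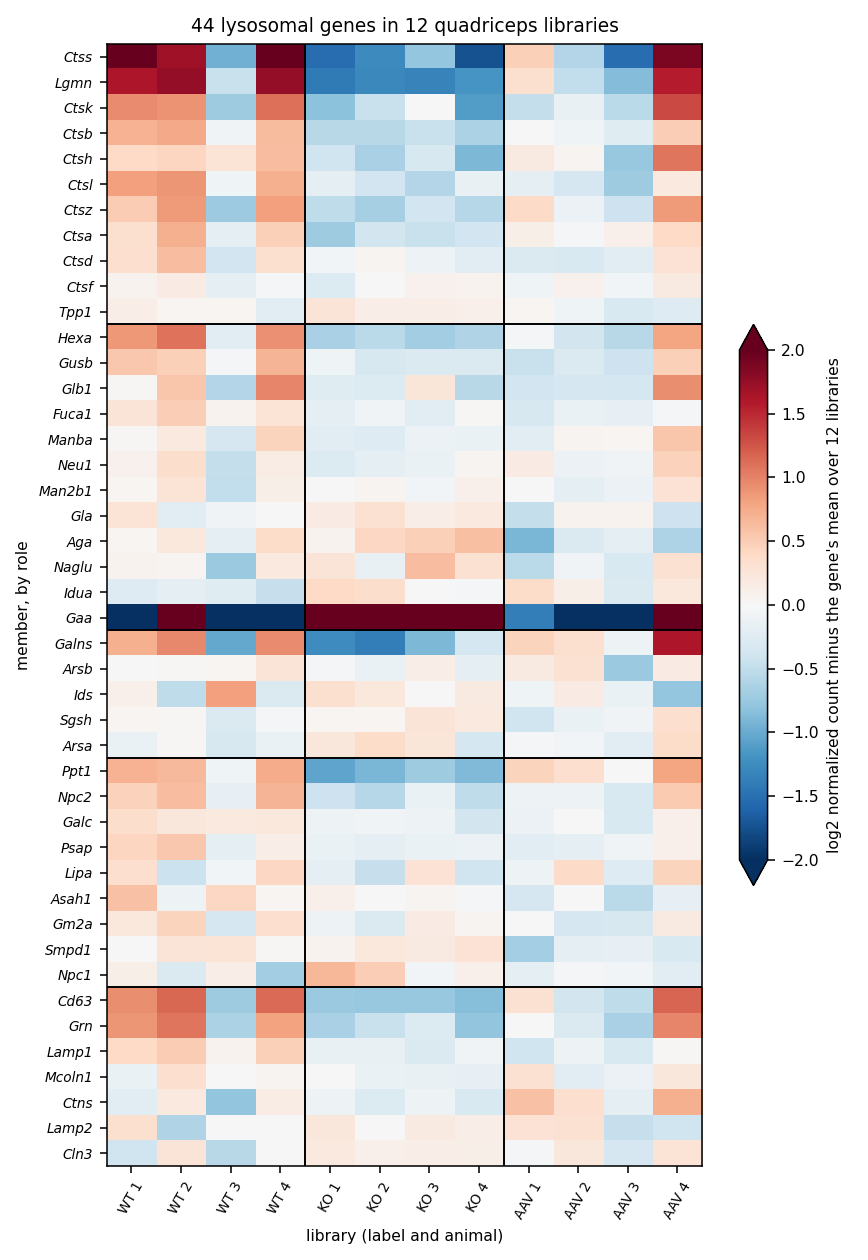
Each column is 1 of the 12 libraries by label and animal and each row 1 of the 44 genes, ordered by role, with color giving the log2 normalized count minus the gene's mean over the 12 libraries (scale from -2 to 2, values beyond it in the end colors). The upper protease rows and Hexa, Galns, Ppt1, Cd63 and Grn are red in WT animals 1, 2 and 4 and in AAV animal 4, and pale or blue in WT animal 3 and the KO libraries, and Gaa is red in all 4 KO libraries, WT animal 2 and AAV animal 4.

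The comparison of the libraries labelled KO and WT asks how lysosomal transcripts differ with the knock-out, and its directions rest on labels that Gaa goes against. A group of 14 members was lower in KO: the proteases Lgmn, Ctss, Ctsb, Ctsh, Ctsl and Ctsa, the glycan hydrolases Hexa and Gusb, the sulfatase Galns, the lipid proteins Ppt1 and Npc2, and Cd63, Grn and Lamp1. Gaa and Idua were higher. Among the lower members the differences were widest in Ctss (5.94-fold higher in WT) and Lgmn (5.57-fold higher in WT), and 28 members did not pass the test. Of the 44 members 31.8% were lower, where 15.3% of the 14859 genes tested were, and 4.55% were higher, where 12.3% of all genes were. With a fold change of at least 2-fold as well, 8 members (18.2%) were lower against 8.5% of all genes, and 1 member, Gaa, was higher against 5.43% of all genes. All 4 KO values lay below all 4 WT values for 12 members, against 15.1% of all genes, and above them for 2, Idua and Sgsh, against 13.3% of all genes. The median log2 fold change was -0.25 over the members and 0.02 over all genes.

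**Figure D2:**
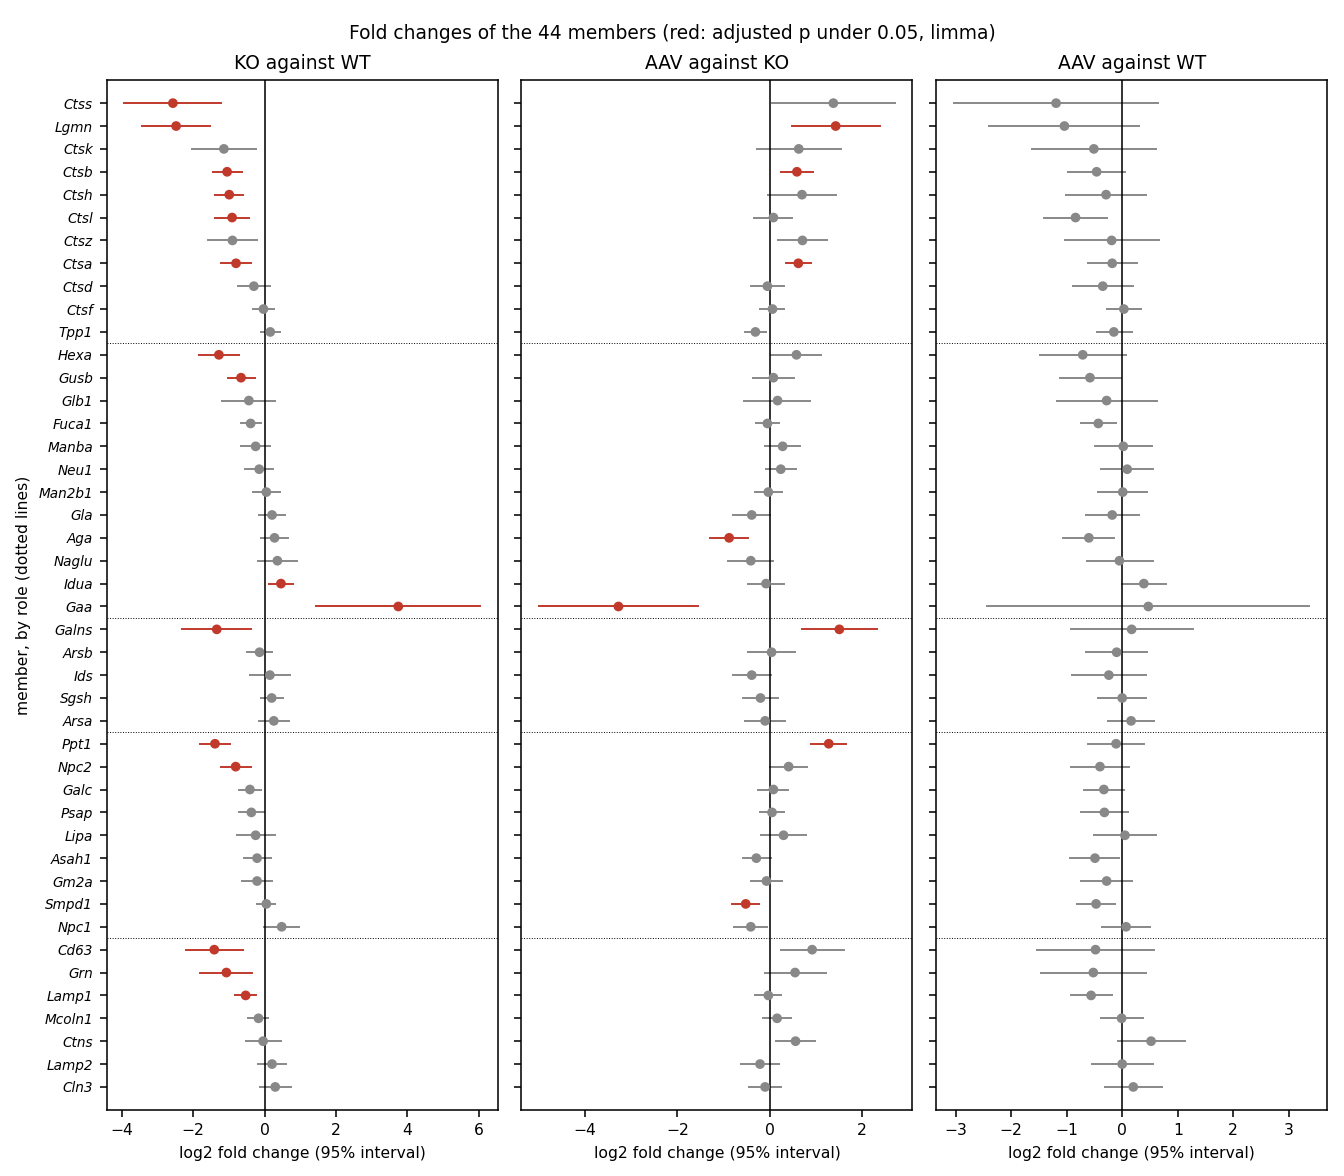
The log2 fold change of each of the 44 genes (rows, by role, with dotted lines between roles) is plotted for KO against WT, AAV against KO and AAV against WT, with 95% intervals from limma and in red those with an adjusted p under 0.05. Called points lie left of 0 for 14 genes and right for 2 in KO against WT, right for 5 and left for 3 in AAV against KO, and nowhere in AAV against WT.

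Gaa (acid alpha-glucosidase, ENSMUSG00000025579, chromosome 11, 119267887 to 119285454, + strand in GENCODE M21 on GRCm38) had a mean of 12514 ± 555 normalized counts (SD, n = 4) with the KO label and of 3942 ± 7132 (SD, n = 4) with the WT label. The log2 fold change was 3.75 (SE 1.03, 95% interval 1.45 to 6.04, adjusted p = 0.025 by limma). An exact two-sided permutation test over the animals gave p = 0.143, where 0.0286 is the smallest possible. On recovered reads edgeR gave 1.66 (adjusted p = 0.29), and DESeq2 gave no adjusted p for this gene. Without WT animal 2, the high library of its group, the difference was 5.07 (adjusted p = 1.2e-06 by limma).

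Of the 11 proteases, 6 were lower in KO and none was higher, with a median log2 fold change of -0.91. Lgmn, the asparaginyl endopeptidase legumain that activates other proteases, had 4616, 5084, 1096 and 5069.5 in WT animals 1 to 4, 560.4, 616, 593 and 660.5 in KO animals 1 to 4 and 1862, 1063, 817 and 4466 in AAV animals 1 to 4. The KO values lay within a narrow band below every WT value, of which that of animal 3 was far below the others. Its log2 fold change was -2.48 (SE 0.43, adjusted p = 0.00441 by limma). Ctss, the cysteine protease cathepsin S of antigen-presenting cells, had 551, 429.5, 68.2 and 637 in WT animals 1 to 4, 46.4, 54.7, 77.2 and 39.8 in KO animals 1 to 4 and 185, 88.6, 46.1 and 492 in AAV animals 1 to 4. WT animal 3 fell inside the KO range and the other WT libraries were at least 5 times as high as any KO library, with a log2 fold change of -2.57 (SE 0.61, adjusted p = 0.0144 by limma). Without WT animal 3 it was -3.31 (adjusted p = 5.17e-06 by limma).

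Ctsb, the broadly expressed cysteine protease cathepsin B, had 18468, 19153, 10781 and 17655 in WT animals 1 to 4, 7738, 7749, 8371 and 7335 in KO animals 1 to 4 and 11242, 10752, 9651 and 16009 in AAV animals 1 to 4. All KO values were below all WT values, and the log2 fold change was -1.05 (SE 0.18, adjusted p = 0.0043 by limma). Ctsh, the aminopeptidase cathepsin H, had 217, 223, 199.7 and 254 in WT animals 1 to 4, 126, 105, 132 and 88.4 in KO animals 1 to 4 and 187, 171, 98 and 345 in AAV animals 1 to 4, again without overlap of KO and WT. Its log2 fold change was -0.99 (SE 0.17, adjusted p = 0.00441 by limma). Ctsl, the cysteine protease cathepsin L, had 6622, 6894, 3528 and 6119 in WT animals 1 to 4, 3251, 2873, 2489.7 and 3386 in KO animals 1 to 4 and 3322, 2978, 2279 and 4308 in AAV animals 1 to 4. WT animal 3, the lowest of its group, was just above the highest KO library, and the log2 fold change was -0.91 (SE 0.21, adjusted p = 0.0131 by limma). Ctsa, the carboxypeptidase that also stabilizes beta-galactosidase and neuraminidase, had 2889, 3795, 2014 and 3229 in WT animals 1 to 4, 1414, 1795, 1706 and 1776 in KO animals 1 to 4 and 2515, 2270.3, 2480.1 and 3066 in AAV animals 1 to 4. The KO libraries were again the lowest group, with a log2 fold change of -0.80 (SE 0.19, adjusted p = 0.0132 by limma).

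Among the other proteases, the cysteine cathepsins Ctsk (-1.14) and Ctsz (-0.90) did not pass the test (adjusted p = 0.0596 and 0.0523 by limma). On recovered reads both were called lower by edgeR and by DESeq2. Ctsd (-0.30), Ctsf (-0.03) and Tpp1 (0.16), a tripeptidase, were further from the threshold. Ctsd shares 34.4% of its exon bases with Gm49369, annotated on the same strand, and how reads in shared bases were assigned is not given in the sources used here. Ctsl shares 26.8% of its exon bases with a gene on the opposite strand, Ctsb 12.8% and Ctsa 10.5%, and the sources do not say whether reads were counted by strand, so that a part of these values may belong to the neighbours.

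**Figure D3:**
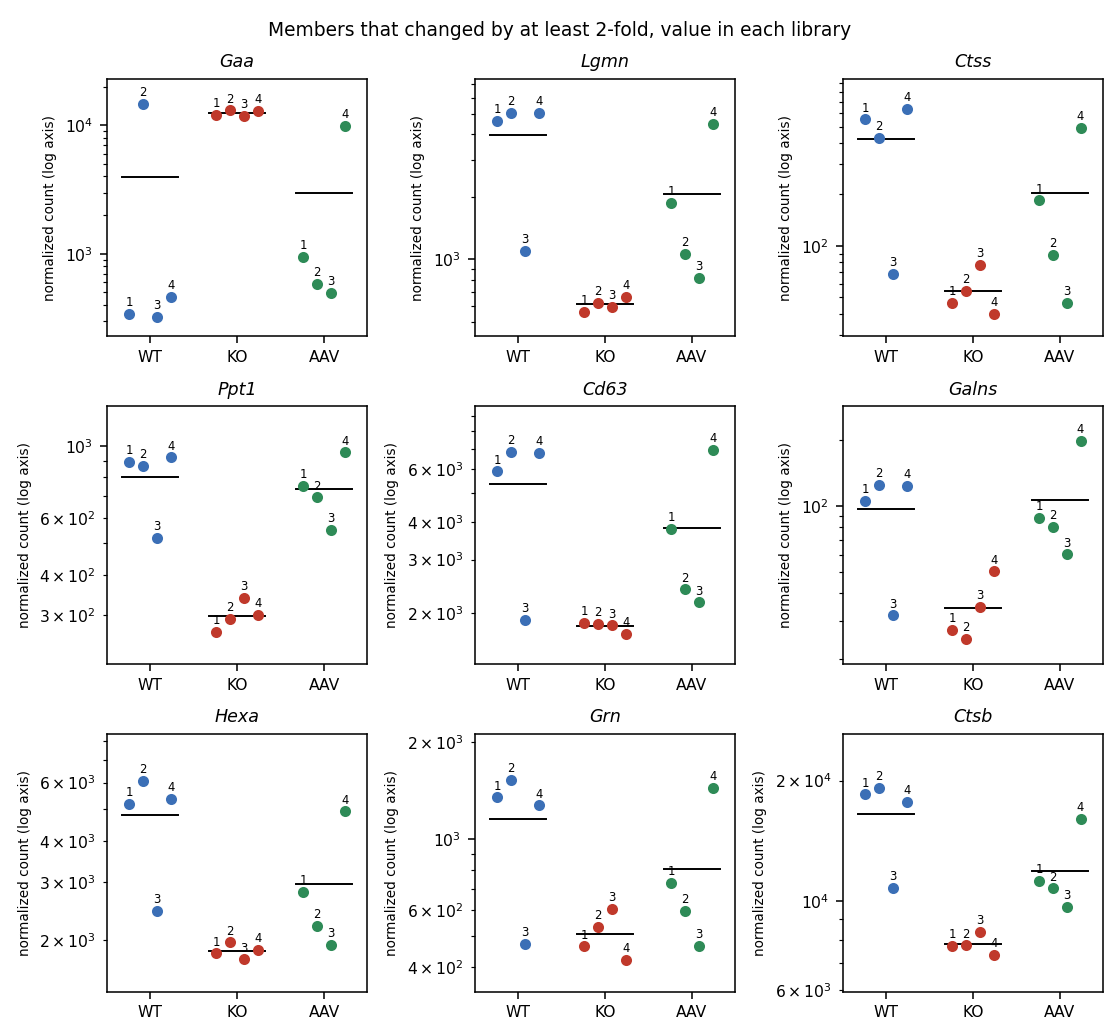
Normalized counts on a log axis are plotted for the 9 members with a called difference of at least 2-fold in KO against WT or AAV against KO, with a point for each animal, numbered 1 to 4, and a line at the group mean. In all panels but Gaa the KO points lie low, WT animal 3 is the lowest WT point, and AAV animal 4 is the highest AAV point. In these panels the KO points spread most in Galns and Ctss.

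The 12 glycan hydrolases split, with 2 lower (Hexa, Gusb), 2 higher (Gaa, Idua) and a median of -0.05. Hexa, the alpha subunit of beta-hexosaminidase, had 5181, 6077, 2460 and 5360.1 in WT animals 1 to 4, 1826, 1970.3, 1751 and 1874 in KO animals 1 to 4 and 2805, 2206, 1933 and 4908 in AAV animals 1 to 4. Every KO library was lower than every WT library, and the log2 fold change was -1.28 (SE 0.25, adjusted p = 0.00673 by limma). Gusb, the beta-glucuronidase, had 467, 448, 314 and 517 in WT animals 1 to 4, 303, 258, 264 and 264 in KO animals 1 to 4 and 236, 265, 243 and 448 in AAV animals 1 to 4. The KO and WT values did not overlap, though KO animal 1 came near WT animal 3, and the log2 fold change was -0.66 (SE 0.17, adjusted p = 0.0198 by limma). Idua, the iduronidase that is missing in mucopolysaccharidosis type I, had 231, 243, 231 and 199 in WT animals 1 to 4, 363, 349.8, 274 and 269.7 in KO animals 1 to 4 and 356, 299, 224 and 319 in AAV animals 1 to 4. Here the KO values were all above the WT values, with a log2 fold change of 0.46 (SE 0.15, adjusted p = 0.0475 by limma).

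Aga, the aspartylglucosaminidase that frees glycans from asparagine, had 289, 325, 249 and 365 in WT animals 1 to 4, 295, 374, 390.5 and 429 in KO animals 1 to 4 and 150.2, 229.5, 249 and 184 in AAV animals 1 to 4. KO and WT overlapped, with a log2 fold change of 0.28 (SE 0.17, adjusted p = 0.236 by limma). Fuca1, the fucosidase, was lower in every KO library (556, 598, 537 and 643 in KO animals 1 to 4) than in every WT library (755, 884, 657 and 763 in WT animals 1 to 4), but its difference of -0.39 had an adjusted p that rounded to 0.05 (limma) and did not pass. On recovered reads edgeR and DESeq2 each called Fuca1 lower. The remaining members of this role, Glb1 and Gla (galactosidases), Man2b1 and Manba (mannosidases), Naglu (a glucosaminidase of heparan sulfate) and Neu1 (a sialidase), lay between -0.44 (Glb1) and 0.36 (Naglu). Hexa shares 12.8% of its exon bases with another gene.

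Of the 5 sulfatases, Galns alone was called, and the median log2 fold change was 0.15. Galns, the sulfatase of keratan sulfate, had 106, 125, 31.7 and 124 in WT animals 1 to 4, 27.1, 24.8, 34.8 and 50.4 in KO animals 1 to 4 and 88.2, 80.5, 60.2 and 198 in AAV animals 1 to 4. WT animal 3 fell inside the KO range, and the other 3 WT libraries were more than 2 times as high as any KO library. Its log2 fold change was -1.34 (SE 0.44, adjusted p = 0.0447 by limma). Ids, the iduronate sulfatase, had 556, 368, 921 and 424 in WT animals 1 to 4, 652, 605, 519.9 and 586 in KO animals 1 to 4 and 488, 581, 475 and 304 in AAV animals 1 to 4. WT animal 3 was the highest library here, and the log2 fold change was 0.15 (SE 0.25, adjusted p = 0.684 by limma).

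Sgsh, the heparan N-sulfatase, had 213.6, 210.5, 169.6 and 203.8 in WT animals 1 to 4, 214.5, 214.6, 248.0 and 238.7 in KO animals 1 to 4 and 157.1, 190.3, 198.4 and 263.4 in AAV animals 1 to 4. All KO values were above all WT values by a narrow margin, and the difference of 0.20 (SE 0.14, adjusted p = 0.3 by limma) was not called. Arsa, the sulfatase of myelin sulfatide, had 142, 158, 126 and 143 in WT animals 1 to 4, 184, 201, 186 and 123 in KO animals 1 to 4 and 152, 151, 136 and 203 in AAV animals 1 to 4. Those values overlapped, with a log2 fold change of 0.26 (SE 0.19, adjusted p = 0.306 by limma). Arsb, a sulfatase of dermatan sulfate, was at -0.14 and was not called. Sgsh, Arsa and Arsb share 21.6%, 18.8% and 32.3% of their exon bases with another gene.

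Among the 9 lipid hydrolases, activators and cholesterol proteins, Ppt1 and Npc2 were lower, none was higher, and the median was -0.25. Ppt1, the thioesterase that removes palmitate from proteins, had 891, 866, 521 and 923 in WT animals 1 to 4, 266, 292, 338 and 299.7 in KO animals 1 to 4 and 751, 694, 549 and 956 in AAV animals 1 to 4. All KO values were below all WT values, of which that of animal 3 stood apart, and the log2 fold change was -1.39 (SE 0.19, adjusted p = 0.00175 by limma). Npc2, which hands cholesterol to the transporter Npc1, had 1868, 2093, 1214 and 2185 in WT animals 1 to 4, 1018, 916, 1239 and 957 in KO animals 1 to 4 and 1267, 1262, 1103 and 1963 in AAV animals 1 to 4. KO animal 3 was above WT animal 3 and the groups were otherwise separate, with a log2 fold change of -0.81 (SE 0.19, adjusted p = 0.0144 by limma). Galc, which splits galactosylceramide, had 232, 214, 208 and 209.7 in WT animals 1 to 4, 169, 173, 169.7 and 141 in KO animals 1 to 4 and 168, 180.2, 146 and 195 in AAV animals 1 to 4. KO and WT did not overlap, but -0.41 (SE 0.14, adjusted p = 0.0534 by limma) did not pass. On recovered reads DESeq2 called Galc lower and edgeR did not.

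Smpd1, the acid sphingomyelinase, had 2431, 2912, 2915 and 2474 in WT animals 1 to 4, 2541, 2810, 2760.5 and 2955 in KO animals 1 to 4 and 1517, 2144, 2175 and 1958 in AAV animals 1 to 4. KO and WT values covered nearly the same range, with a log2 fold change of 0.05 (SE 0.11, adjusted p = 0.772 by limma). Psap (-0.37), the acid lipase Lipa (-0.25), the acid ceramidase Asah1 (-0.21), the ganglioside activator Gm2a (-0.21) and the cholesterol transporter Npc1 (0.48) were not called, and their adjusted p values by limma lay above 0.05.

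Of the 7 membrane proteins and granulin, 3 were lower and none was higher, with a median of -0.17. Cd63, a tetraspanin of late endosomes and lysosomes, had 5892, 6852, 1894 and 6789 in WT animals 1 to 4, 1852, 1833, 1815 and 1706 in KO animals 1 to 4 and 3789, 2388, 2162 and 6935 in AAV animals 1 to 4. WT animal 3 was barely above the KO libraries while the other WT libraries were more than 3 times as high, and the log2 fold change was -1.41 (SE 0.36, adjusted p = 0.0189 by limma). Grn, the precursor of the granulins, had 1346, 1526, 472 and 1271 in WT animals 1 to 4, 464, 534, 605 and 421 in KO animals 1 to 4 and 729, 597, 465 and 1437 in AAV animals 1 to 4. WT animal 3 lay among the KO libraries, and the log2 fold change was -1.07 (SE 0.33, adjusted p = 0.0373 by limma). Lamp1 had 24435, 26409, 19534 and 26039 in WT animals 1 to 4, 16748, 16812, 15179.7 and 17719 in KO animals 1 to 4 and 14148, 17373, 15126 and 18869.8 in AAV animals 1 to 4. Its KO values were all below its WT values, with a smaller log2 fold change of -0.53 (SE 0.13, adjusted p = 0.0181 by limma).

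Ctns, the cystine transporter, had 190, 252, 127 and 243 in WT animals 1 to 4, 204, 180.4, 203 and 178 in KO animals 1 to 4 and 329, 276, 192 and 359.7 in AAV animals 1 to 4, and its log2 fold change was -0.04 (SE 0.22, adjusted p = 0.911 by limma). Cln3, a membrane protein mutated in Batten disease, had 151, 238, 136 and 201 in WT animals 1 to 4, 229, 213, 219 and 215 in KO animals 1 to 4 and 194, 232, 158 and 241 in AAV animals 1 to 4, and its log2 fold change was 0.30 (SE 0.19, adjusted p = 0.246 by limma). The KO and WT values of both overlapped. Lamp2, the LAMP protein needed for autophagosome turnover (0.21, 95% interval -0.19 to 0.60), and Mcoln1, a calcium channel of the lysosomal membrane (-0.17, 95% interval -0.46 to 0.11), were not called.

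Of the 14 lower members, 10 had no overlap between KO and WT and 4 (Galns, Ctss, Grn and Npc2) overlapped through WT animal 3. WT animal 3 was the lowest WT library for all 14, and AAV animal 4 was the highest AAV library for all 14. Without WT animal 3, 25 members were called in this comparison (limma, Benjamini-Hochberg), 22 lower and 3 higher, with Ctsd, Ctsk, Ctsz, Fuca1, Galc, Gm2a, Neu1, Npc1 and Psap added. The calls over all genes rose as well, from 15.3% to 24.2% lower and from 12.3% to 24.2% higher, so that the added members went with a rise over all genes. Without any other single animal, 9 (all lower, without WT animal 4, where 9.22% of all genes were lower) to 12 members were called, while the share of all genes called fell from 27.6% to between 15.9% and 19.2%. Galns, Grn and Idua lost their call without each of these other 7 animals, with the highest adjusted p over all alternatives at 0.119, 0.102 and 0.135 (Benjamini-Hochberg). Gaa lost its call without WT animal 1 or 4 or any KO animal (3.27 to 3.77), Gusb without WT animal 1 or 4 or KO animal 2, 3 or 4, Cd63 without WT animal 1, 2 or 4, and Lamp1 without WT animal 4 or KO animal 2 or 3. The remaining 9 lower members, Lgmn, Ctss, Ctsb, Ctsh, Ctsl, Ctsa, Hexa, Ppt1 and Npc2, kept their call without each animal in turn. On recovered reads edgeR called 18 members (17 lower) and 26.8% of all genes, and DESeq2 19 (18 lower) and 32.8%.

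Most markers of macrophages moved with the lower members. The 15 macrophage genes, from Adgre1 and Csf1r to Cd68, summed to 5395, 5140, 1887 and 6326 normalized counts in WT animals 1 to 4, to 1520, 1645, 1927 and 1050 in KO animals 1 to 4, and to 2583, 1972, 1140 and 5737 in AAV animals 1 to 4. The sum of WT animal 3 was thus within the KO range and that of AAV animal 4 within the WT range. In KO against WT 9 of the 15 were lower, where 15.3% of all genes were, and 1 was higher (Cd163, 0.79), with a median of -1.67. The widest differences were those of Cd68 (-3.35, SE 0.60, adjusted p = 0.00513 by limma) and Mpeg1 (-2.52, SE 0.58, adjusted p = 0.0131 by limma). The other 5 were not called: Csf1r (-0.49), Mrc1 (-0.36), Ptprc (-0.48), Itgam (-1.02) and Aif1 (-1.89). None of the 15 was at 0 in any library. Over the 44 members the sums were 159155, 190437, 102789 and 154749 in WT animals 1 to 4, 110917 to 115718 in KO and 103185, 102037, 98328 and 151335 in AAV animals 1 to 4. The 5 endothelial genes went the other way, with 5334 in WT animal 3 against 1889 to 2968 in the other WT libraries, 4399 to 5770 in KO and 3492 to 5984 in AAV. In KO against WT 2 of them, Cdh5 and Pecam1, were higher. Fibroblast genes had 1 of 7 higher in KO (Dpt), the 4 adipocyte and 3 blood genes had none called, and of 9 myofibre genes Myh4 was higher and Myh1 lower. Both are myosin heavy chains of fast fibers. The part of cell makeup in the lysosomal result was not tested.

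**Figure D4:**
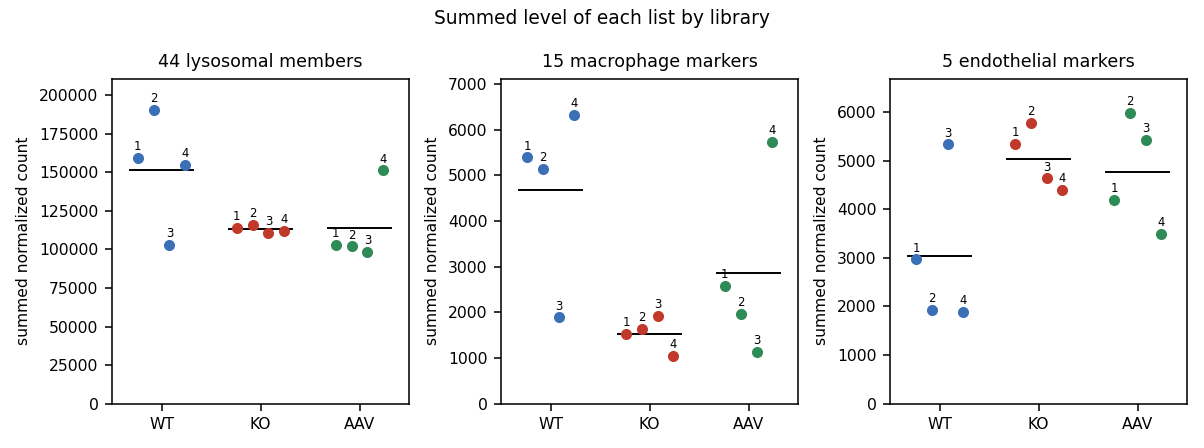
Summed normalized counts are plotted for the 44 lysosomal genes, 15 macrophage markers and 5 endothelial markers, with a numbered point for each animal and a line at the group mean. WT animal 3 lies near the KO points and AAV animal 4 near the upper WT points in the lysosomal and macrophage panels, and in the endothelial panel WT animal 3 lies high and AAV animal 4 is the lowest AAV point.

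The other lysosomal genes, a list of 32 chosen by name, were read beside the members. In KO against WT 3 of the 32 were higher, where 12.3% of all genes were, and 4 were lower, where 15.3% of all genes were, so that neither count exceeded the share over all genes. The median log2 fold change was -0.06, against -0.25 for the members and 0.02 for all genes. Of the called genes, Dnase2a, the acid DNase (-1.59, SE 0.31, adjusted p = 0.00734 by limma), Arsg, a sulfatase (-1.16, SE 0.30, adjusted p = 0.0207 by limma), Tmem192 (-0.83) and Scarb2, the receptor that carries glucocerebrosidase to lysosomes (-0.61), were lower. Hgsnat, the acetyltransferase of heparan sulfate breakdown (1.11, SE 0.17, adjusted p = 0.00289 by limma), Arsk (0.81) and Laptm4b (0.80) were higher. The 32 genes summed to 26504 to 30445 normalized counts in WT, 25591 to 26228 in KO and 21496 to 25479 in AAV.

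Members with and without CACGTG in the promoter window are given side by side, with no test. Of the 14 members that hold it, 4 (Ctsa, Ctsl, Lamp1 and Lgmn) were lower in KO and 1 (Gaa) higher, with a median of -0.10. Of the 24 members whose window lacks it, 7 were lower and 1 higher, with a median of -0.31.

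The comparison of the libraries labelled AAV and KO asks how muscle of knock-out mice differs after the vector. Of the 44 members 5 were higher in AAV, Ppt1, Lgmn, Galns, Ctsa and Ctsb, and 3 were lower, Aga, Smpd1 and Gaa. Directions again rest on the labels, with Gaa high in all libraries labelled KO and in AAV animal 4, and the KO libraries are those of the comparison with WT. The share of members higher was 11.4%, against 12.8% of the 14894 genes tested, and the share lower was 6.82%, against 13.4% of all genes. At 2-fold or more, 3 members (Galns, Lgmn and Ppt1) were higher against 5.43% of all genes, and 1 (Gaa) was lower against 3.55% of all genes. All 4 AAV values lay above all 4 KO values for 6 members against 14.8% of all genes, and below for 5 against 15.8%. The median log2 fold change was 0.07 over the members and 0.04 over all genes. Scaling by total reads moved the median of all genes to 0.20, so that medians near 0 are read only against that of all genes.

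For Gaa the mean was 2972 ± 4592 normalized counts (SD, n = 4) with the AAV label, and the log2 fold change against KO was -3.28 (SE 0.77, adjusted p = 0.016 by limma). All AAV values, that of animal 4 included, were below all KO values, and an exact two-sided permutation test gave p = 0.0286, the smallest possible. Without AAV animal 4 the difference was -4.26 (adjusted p = 4.69e-06 by limma). The call was lost by edgeR (-2.09, adjusted p = 0.0986) and by DESeq2 (-2.08, adjusted p = 0.0917) on recovered reads and with all 12 libraries in 1 limma fit (adjusted p = 0.0604).

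Among the proteases, 3 of 11 were higher in AAV than in KO, none was lower, and the median was 0.62. Lgmn, at 1862, 1063, 817 and 4466 in AAV animals 1 to 4 and 560.4, 616, 593 and 660.5 in KO animals 1 to 4, differed by 1.43 (SE 0.43, adjusted p = 0.0348 by limma). No AAV library overlapped the KO libraries, though AAV animal 3 was close to them and AAV animal 4 far above. Without AAV animal 4 the difference was 0.95 (adjusted p = 0.0226 by limma). Ctsa differed by 0.62 (SE 0.13, adjusted p = 0.00919 by limma) and Ctsb by 0.59 (SE 0.15, adjusted p = 0.0231 by limma), both without overlap. Ctss had the second largest difference of the proteases but was not called, at 1.38 (SE 0.60, adjusted p = 0.112 by limma), with AAV animal 3 inside the KO range. Ctsh (0.70), Ctsz (0.71) and Ctsk (0.63) were not called, and Ctsl was at 0.08 (95% interval -0.34 to 0.49).

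The other roles held few called genes. Of the 12 glycan hydrolases Aga and Gaa were lower and none was higher, with a median of -0.04. Aga differed by -0.88 (SE 0.19, adjusted p = 0.0111 by limma), with all AAV values below all KO values. Hexa (0.58, 95% interval 0.03 to 1.12), Gusb (0.08) and Idua (-0.08) were not called. Of the 5 sulfatases Galns was higher, by 1.51 (SE 0.37, adjusted p = 0.0175 by limma), and no AAV value overlapped the KO values. Ids (-0.39), Sgsh (-0.20) and Arsa (-0.10) were not called, and the median of this role was -0.10.

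Of the 9 lipid proteins Ppt1 was higher, at 1.28 (SE 0.17, adjusted p = 0.00196 by limma), and Smpd1 lower, at -0.52 (SE 0.13, adjusted p = 0.0193 by limma), both without overlap, and the median was 0.05. Npc2 (0.41) and Galc (0.08) were not called. None of the 7 membrane proteins and granulin was called (16 members of all roles, 36.4%, had an unadjusted p under 0.05 in limma, 11 higher and 5 lower, against 41.1% of all genes), and the median was 0.16. Cd63 was higher in every AAV library than in every KO library but narrowly missed the threshold, at 0.92 (SE 0.31, adjusted p = 0.0505 by limma). Ctns was at 0.56, Grn at 0.55, Cln3 at -0.10 and Lamp1 at -0.03 (95% interval -0.31 to 0.25). Gla and Tpp1 were lower in every AAV library than in every KO library without a call (-0.39 and -0.31).

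Counts in this comparison moved with single animals. Without AAV animal 3, 14 members were called (limma, Benjamini-Hochberg), 11 of them higher, with Cd63, Ctns, Ctsh, Ctss, Ctsz and Hexa added, and without KO animal 2, 4 were called. The share of all genes called moved too, from 26.3% to 34.1% without AAV animal 3 and to 14.3% without KO animal 2. Lgmn lost its call without any KO animal or AAV animal 1, Ctsb without KO animal 1, 2 or 4, Galns without KO animal 1 or 2, and Smpd1 without KO animal 2 or 4, with highest adjusted p values over all alternatives of 0.0895, 0.0664, 0.0516 and 0.0719. Without AAV animal 4, 9 members were called, with Cd63 added, and 22.1% of all genes. Ppt1, Ctsa, Aga and Gaa kept their call without each animal in turn. On recovered reads edgeR called 12 members (9 higher) and 27.0% of all genes, and DESeq2 14 (10 higher) and 32.1%.

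Of the 15 macrophage markers none was called between AAV and KO by limma (5 had an unadjusted p under 0.05, as had 41.1% of all genes), and their median log2 fold change was 0.76. Their sum in AAV animal 4, 5737, was more than 2 times that in any other AAV library, and the part of these markers in the higher members was not tested. Among the 32 other lysosomal genes 3 were higher in AAV, where 12.8% of all genes were, and 5 were lower, where 13.4% of all genes were, with a median of -0.10 against 0.04 for all genes. Hyal1, a hyaluronidase (1.04, SE 0.18, adjusted p = 0.00611 by limma), Dnase2a (1.25) and Arsg (0.93) were higher. Among those lower were Hgsnat (-1.45, SE 0.17, adjusted p = 0.00115 by limma), Laptm4b (-1.17) and Ostm1 (-0.38). Of the other marker lists, Dpt was lower and Myh1 and Hba-a1, a hemoglobin chain of blood, were higher. Members with CACGTG had a median of -0.04 (2 higher, 1 lower of 14) and those without it of 0.16 (1 higher, 1 lower of 24).

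The libraries labelled AAV and WT were set side by side because the KO values were identical in both tables, which puts all 12 libraries on a single scale. No member passed the test by limma, where 0.951% of the 14939 genes tested were higher and 0.341% lower in AAV. At an unadjusted p under 0.05 there were 7 members, all lower in AAV: Lamp1, Ctsl, Fuca1, Smpd1, Aga, Asah1 and Gusb. They are 15.9% of the members, against 18.2% of all genes. This count moved with the setting. Scaled by total reads, 1 member was at that level (2.27%, against 17.8% of all genes). Without WT animal 3 there were 17 (38.6%, against 24.6%), and without AAV animal 4 there were 13 (29.5%, against 19.1%). By edgeR on recovered reads there were also 0 calls, and of 7 members at an unadjusted p under 0.05 (17.5% of all genes) 1 was higher and 6 were lower. DESeq2 called Ctsl and Lamp1, with 2.38% of all genes lower. At an unadjusted p under 0.05 DESeq2 had 1 member higher and 7 lower (20.1% of all genes). Without WT animal 3, limma called Ctsl, with 0.833% of all genes lower. The median log2 fold change was -0.21 over the members, against -0.03 over all genes (0.12 over all genes when scaled by total reads).

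Lamp1, Fuca1, Smpd1 and Galc were lower in every AAV library than in every WT library. The log2 fold change of Lamp1 was -0.56 (SE 0.17, adjusted p = 0.133 by limma), that of Fuca1 -0.43 (SE 0.14, adjusted p = 0.158 by limma), that of Smpd1 -0.47 (SE 0.15, adjusted p = 0.158 by limma) and that of Galc -0.33. These 4 are 9.09% of the members, against 4.97% of all genes, and no member was higher in every AAV library, against 6.69% of all genes. Ctsl was at -0.84 (SE 0.26, adjusted p = 0.138 by limma). By role the medians were -0.35 for proteases, -0.11 for glycan hydrolases, 0.00 for sulfatases, -0.32 for lipid proteins and -0.01 for membrane proteins and granulin.

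Intervals of single members were wide in this comparison, so that a missing call does not show equal levels. Lgmn was at -1.04 (95% interval -2.40 to 0.31), Ctss at -1.19 (-3.03 to 0.65) and Gaa at 0.47 (-2.44 to 3.37, exact permutation p = 1.0). Ppt1 was at -0.11 (-0.62 to 0.40) and Galns at 0.17 (-0.93 to 1.27). Set beside each other for KO against WT, AAV against KO and AAV against WT, in comparisons that share libraries pairwise, Ppt1 gave -1.39, 1.28 and -0.11, Lgmn -2.48, 1.43 and -1.04, and Lamp1 -0.53, -0.03 and -0.56. None of the 15 macrophage markers was called between AAV and WT by limma (3 at an unadjusted p under 0.05, as were 18.2% of all genes), and their median was -0.81. Of the 32 other lysosomal genes none was called, with a median of -0.21, against -0.03 over all genes. At an unadjusted p under 0.05 in limma there were 11 of them, which exceeded the share over all genes (18.2%).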

How the data were processed

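Quadriceps RNA of 12 mice (4 WT, 4 KO, 4 AAV) was sequenced, and groups were taken from the sample labels. Per the submitters' processing notes and the study's methods, the authors trimmed reads with Trim Galore 0.4.1, mapped them to GRCm38 with STAR, counted uniquely mapped reads per gene with HTSeq 0.6.1 and divided each library's counts by a DESeq2 1.16.1 size factor. The deposited signal values are these normalized counts. Whether counting used strand is not given in the sources used here. Per-sample columns left out numbered 0. The tables also hold the authors' own log2 fold changes, standard errors, Wald statistics and p-values, which were not used. The KO values of both tables differed by 0.

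A test of raw counts with edgeR had been planned. Because the deposited values are normalized, limma 3.58.1 (with a trend, R 4.3.3) was run on log2(value + 1) of the 8 libraries of each comparison, keeping genes that reached 10 in at least 1 of those libraries, with Benjamini-Hochberg adjustment. All values were whole multiples of a step per library (100% within 0.01 read), so that edgeR 4.0.16 and DESeq2 1.42.0 on the recovered reads were alternatives, beside other scalings, no filter, a pseudocount of 0.1, a replicate block, all 12 libraries in 1 fit and each animal left out. Scripts were tested on simulated data.

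The members and all lists were chosen with earlier results of these data known. Library values are given for Gaa, for called members that changed at least 2-fold, and for up to 3 further members of each role with the lowest adjusted p. Fuca1, given with library values, was added after its values were seen. Exon lengths and coordinates are those of GENCODE M21 (GRCm38), which holds 15186 of the 15344 identifiers, and promoters from RefSeq (GRCm38.p6). Adgre1 and Glmp, listed under older names, were matched by gene ID, and values of some genes of the lists are not reported here. Tables and figures were made in Python 3.11.15 (scipy 1.17.1, numpy 2.4.6, pandas 2.3.3, matplotlib 3.10.9).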

Additional observations from a re-analysis of the deposited data

Results flagged for a closer look

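In 12 of 132 groups of 4 animals (44 members in 3 groups, 9.09%) a single library lay apart from the other 3 by more than Dixon's 95% critical share of the group's range, where chance gives about 1 in 20 groups. For Gaa, WT animal 2 had 14640.2 normalized counts against 323.8 to 460.3 in the others, and AAV animal 4 had 9854 against 500 to 947. AAV animal 4 was also apart for Ctsd (34395.5 against 22622.5 to 24044), Ctsk (239.5 against 66.1 to 86.6), Glb1 (106.5 against 42.7 to 44.3) and Gusb (448 against 236 to 265). WT animal 3 was apart for Lgmn (1096 against 4616 to 5084.5) and Ppt1 (521 against 866 to 923), and WT animal 4 for Arsb (153 against 128.5 to 131.5). Of the KO libraries, animal 1 was apart for Gusb (303 against 258 to 264) and Tpp1 (2049 against 1847 to 1880.5), and animal 4 for Galc (140.6 against 169 to 173). The libraries that recur are AAV animal 4, apart for 5 members, and WT animal 3 and KO animal 1, apart for 2 each.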

How the results depend on the processing

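Of 352 values of single called members other than Gaa under the alternatives, 296 kept their direction and their side of the threshold, 56 kept their direction but were no longer called, and 0 changed direction. Members higher in KO than in WT numbered 2, but 1 by edgeR, DESeq2, scaling by total reads, scaling by TMM, and all 12 libraries in 1 fit (10.6% to 13.5% of all genes, against 12.3%), and 0 to 3 with an animal left out (6.18% to 24.2%). Members lower in KO than in WT numbered 14, but 17 by edgeR and 18 by DESeq2 (16.2% and 19.3% of all genes, against 15.3%). With an animal left out they numbered 9 (without WT animal 4) to 22 (without WT animal 3), with 9.22% to 24.2% of all genes lower. Gaa in KO against WT (3.75) was 1.66 by edgeR (adjusted p = 0.29), and 3.24 to 5.07 with an animal left out, with the call lost without WT animal 1 or 4 or any KO animal. Members higher in AAV than in KO numbered 5, but 9 by edgeR, 10 by DESeq2 and 3 with all 12 libraries in 1 fit (13.3%, 16.4% and 8.87% of all genes, against 12.8%), and 2 to 11 with an animal left out (6.61% to 17.0%). Members lower in AAV than in KO numbered 3, and 2 to 4 with an animal left out (6.52% to 17.1% of all genes, against 13.4%). Gaa in AAV against KO (-3.28) lost its call by edgeR (-2.09, adjusted p = 0.0986), by DESeq2 (-2.08, adjusted p = 0.0917) and with all 12 libraries in 1 fit (-3.28, adjusted p = 0.0604), and was -4.26 to -2.83 with an animal left out, each time called. Members lower in AAV than in WT numbered 0 by limma, but 2 by DESeq2 and 2 with all 12 libraries in 1 fit (Ctsl and Lamp1 both times, where 2.38% and 1.97% of all genes were lower, against 0.341%), and 0 to 1 with an animal left out (0.0269% to 0.833%). Gaa in AAV against WT (0.47) changed sign by edgeR (-0.34) and ran from -0.51 to 1.79 with an animal left out, and was 0.81 without both WT animal 2 and AAV animal 4. The cause of these changes was not tested. DESeq2 gave no adjusted p for Gaa in the comparisons with WT. Scaling by total reads moved the median of all genes in AAV against KO from 0.04 to 0.20 and in AAV against WT from -0.03 to 0.12.

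With the replicate number as a replicate block, 1 member was higher and 12 were lower in KO than in WT (Galns, Grn and Idua lost), 4 were higher and 3 lower in AAV than in KO (Ctsb lost), and 0 were called in AAV against WT. Calls over all genes fell with the block too, from 27.6% to 20.6% called in KO against WT and from 26.3% to 14.6% in AAV against KO. The numbers stand for different animals, and deviations of same-numbered libraries did not correlate throughout (-0.115 to 0.0253 for KO and WT, -0.176 to 0.0618 for AAV and KO, -0.355 to 0.554 for AAV and WT), so that they are not read as pairs. With 4 animals a group, an exact test of a single gene cannot go below 0.0286. Small differences may have been missed, and the intervals given show how uncertain each difference is.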
